A study of Drosophila melanogaster with 2 samples.

Results

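The genes described here encode proteins of the mitochondrial ribosome of Drosophila melanogaster. They are the 73 protein-coding genes of Ensembl release 115 whose symbols start with mRpL (47 genes) or mRpS (26 genes), among 13968 protein-coding genes on the chromosome arms of dm6. A gene was counted as bound when the summit of a peak in the authors' conservative list was at most 500 bp from any of its transcription starts, and 15 of the 73 met this rule. The peaks come from chromatin immunoprecipitation and sequencing of CG14667, a protein with C2H2 zinc fingers, fused to eGFP and pulled down with an anti-GFP antibody. The material was whole embryos aged 0 to 24 h of the strain CG14667-GFP, in 2 biological replicates of this 1 group. Both carry the same insertion, no other genotype or treatment is among the samples, and the authors' peak calling used a control file. Whole embryos mix all embryonic tissues, and the peaks do not show in which cells the protein was bound. Sequencing depth is unknown, because the files hold peaks and not reads.

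Mitochondria keep a small genome that encodes core subunits of the respiratory chain, and a dedicated ribosome translates their messages. The RNA of this ribosome is made inside the organelle, while its proteins are encoded in the nucleus, made in the cytoplasm and imported. Many of them descend from bacterial ribosomal proteins and keep the bacterial numbering. Others were added to the ribosome during the evolution of mitochondria. In the human ribosome some proteins named for the small subunit, the counterparts of mRpS30 and mRpS18A, sit in the large subunit, so the symbols give the subunit only in general.

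The DNA under the strongest of these peaks was rich in A and T, and 5 examples are shown for that reason. The strongest peak, at mRpL41, is left out. Apart from it, they are the strongest peaks for which the window of 50 bp to either side of the summit held no annotated exon. The sequences are the plus strand of the RefSeq copy of dm6, and capitals mark the longest unbroken run of A and T in each window. In the mRpS10 window a later run is equally long, and only the first is in capitals. The windows were chr3R:15229482-15229582 for mRpS10, chr2L:13835403-13835503 for mRpS23, chr3L:13018090-13018190 for mRpL20, chr2L:4850517-4850617 for mRpS2 and chr2L:4945462-4945562 for mRpL24.
mRpS10: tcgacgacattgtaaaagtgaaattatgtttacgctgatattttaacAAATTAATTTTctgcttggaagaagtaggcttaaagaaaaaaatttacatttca
mRpS23: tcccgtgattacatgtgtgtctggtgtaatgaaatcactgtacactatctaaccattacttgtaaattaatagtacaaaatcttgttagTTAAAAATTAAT
mRpL20: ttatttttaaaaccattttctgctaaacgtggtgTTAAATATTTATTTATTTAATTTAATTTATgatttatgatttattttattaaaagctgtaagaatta
mRpS2: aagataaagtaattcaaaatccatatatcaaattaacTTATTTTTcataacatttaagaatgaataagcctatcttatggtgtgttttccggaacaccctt
mRpL24: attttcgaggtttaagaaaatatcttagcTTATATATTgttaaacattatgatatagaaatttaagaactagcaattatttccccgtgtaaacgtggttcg

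All 5 windows lay between the starts of a pair of genes that run apart. The mRpL20 window held the longest run of A and T, 30 bases, and a GC content of 15.8%. The runs in the other windows were 8 to 12 bases long, and their GC content was 26.7% for mRpS10, 28.7% for mRpS23, 26.7% for mRpS2 and 27.7% for mRpL24.

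Genes of both subunits, with low and high numbers, were among those bound. The 15 bound genes were 20.5% of the 73, where 12.6% of all protein-coding genes were bound. For the large subunit 10 of 47 genes were bound (21.3%), and for the small subunit 5 of 26 (19.2%). By number, mRpL genes up to 36 and mRpS genes up to 21, which are mostly named after bacterial counterparts, had 9 of 42 bound (21.4%). Higher numbers, mostly mitochondrial additions, had 6 of 31 (19.4%). The numbering is only a guide, since the human counterpart of mRpS24 is related to the bacterial protein S3.

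All bound members had 1 arrangement in common. A gene is called head-to-head here when a protein-coding start on the opposite strand lies upstream of its own start, at most 1000 bp away. This held for 58 of the 73 genes (79.5%) and for 5052 of all 13968 protein-coding genes (36.2%). All 15 bound genes were head-to-head, which is 15 of 58 (25.9%), and 0 of the 15 other genes were bound. Among all protein-coding genes 23.2% of head-to-head genes and 6.54% of the others were bound. Set against genes of the same arrangement, the share of bound members was thus 25.9% against 23.2%, where without regard to arrangement it was 20.5% against 12.6%. No test was made of either difference.

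**Figure D1:**
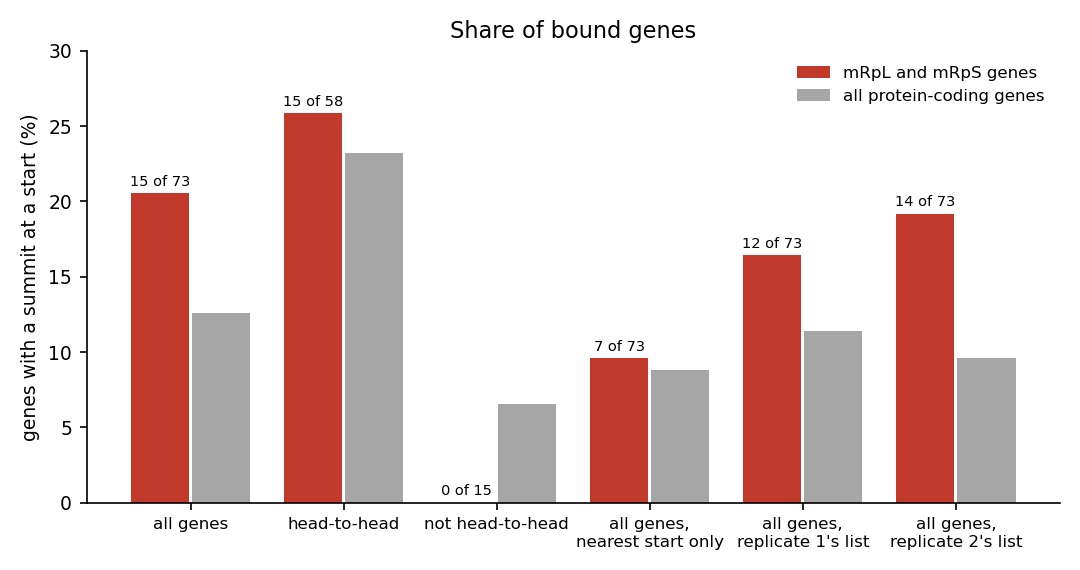
Bars give the percentage of genes with a summit at a start, for the mRpL and mRpS genes (red, with counts) and for all protein-coding genes (grey). The first 3 pairs use the conservative list for all genes, for head-to-head genes (15 of 58 members) and for the rest (0 of 15), and the last 3 use the nearest start only or the list of 1 replicate.

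The distance between the paired starts also varied, and it is taken here between the closest pair of starts. Of members whose partner's start was 1 to 200 bp away, 2 of 22 were bound (9.09%), against 17.9% of 1518 protein-coding genes with that spacing. These 2 genes, mRpL23 (24 bp) and mRpL18 (20 bp), had their summits outside this closest gap. At 201 to 500 bp the count was 11 of 31 (35.5%, against 31.0% of 2297), and at 501 to 1000 bp it was 2 of 5, against 15.3% of 1237. These spacing classes were chosen after the values were seen, and no difference between them was tested. No 2 members were head-to-head with each other.

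The bound genes fell into 7 with strong peaks and 8 with weak ones. The pooled signals of the strong peaks ran from 356.7 to 1665, at ranks 4 to 243 of the 3029 conservative peaks on the arms, and those of the weak peaks from 78.8 to 132.2, at ranks 1260 to 2374. The signal is the authors' own value per peak and its scale is not given. The median over the 15 genes was 132.2, close to the 139.3 of all 1755 bound protein-coding genes, but the upper quartile was 913.9 against 243.2. A peak among the 300 strongest was found at 7 of the 15 (46.7%), where 16.6% of all bound protein-coding genes had one. That difference was noticed in these data and was not tested. It is not matched for arrangement, since all 15 members are head-to-head and 583 of the 1755 genes are not.

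The strongest peak was at mRpL41 (FBgn0034001), which encodes a protein added to the large subunit in mitochondria. It spans 15217600 to 15217908 on 2R. Its signal was 1665 when pooled, 902.1 in replicate 1 and 776.2 in replicate 2. It was the fourth strongest peak on the arms in all 3 lists. The summit lay 140 bp upstream of the mRpL41 start and between it and the start of CG8079, which is 762 bp away on the other strand. The only other start within 500 bp of the summit was that of a non-coding gene, lncRNA:CR44463.

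The next 2 belonged to genes of the small subunit. At mRpS10 (FBgn0038307), whose bacterial counterpart sits in the head of the small subunit, the peak on 3R at 15229376 to 15229687 had a signal of 1327 when pooled, 712.5 in replicate 1 and 627.3 in replicate 2. The summit lay almost midway between mRpS10, 133 bp away, and Art3, 124 bp away, which encodes an arginine methyltransferase. At mRpS23 (FBgn0260407), a mitochondrial addition, the peak on 2L at 13835306 to 13835604 had a signal of 1310 when pooled, 678.7 in replicate 1 and 627.2 in replicate 2. Its summit was 381 bp from the mRpS23 start, the largest distance among the bound members, and 111 bp from CenG1A, a gene for a regulator of Arf-type small GTPases. Both summits were thus nearer to the start of the neighbour.

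At mRpL23 (FBgn0035335), whose bacterial counterpart lies at the exit of the tunnel for the growing protein, the peak on 3L at 2373457 to 2373752 had a signal of 1194 when pooled, 621.4 in replicate 1 and 576.2 in replicate 2. The gene has 3 annotated starts within 500 bp of the summit, which lay 97 bp upstream of the most downstream start and 80 and 106 bp downstream of the other ones, in the 5' UTR. The neighbouring gene CG9004 starts 130 bp from the summit. In these 4 strongest peaks replicate 1 gave the higher signal each time, by 1.08 to 1.16 times.

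A further 3 peaks had intermediate signals. At mRpL20 (FBgn0036335), whose bacterial counterpart is needed early in assembly of the large subunit, the peak on 3L at 13018021 to 13018285 had a signal of 633.5 when pooled, 313.3 in replicate 1 and 317.9 in replicate 2. It is shared with Icmt, which encodes a methyltransferase for prenylated proteins, 126 bp from the summit against 273 bp for mRpL20. The replicates were nearly equal there.

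At mRpS2 (FBgn0031639), on 2L at 4850456 to 4850651, the pooled signal was 456.9, with 293.1 in replicate 1 and 165.7 in replicate 2. At mRpL24 (FBgn0031651), whose bacterial counterpart starts assembly of the large subunit, the peak on 2L at 4945389 to 4945578 had 356.7, with 235.4 and 125.9. At these 2 genes replicate 1 was higher by 1.77 and 1.87 times. Their neighbours are Mon1, a gene of endosome maturation, and betaggt-I, which encodes a subunit of a protein prenyltransferase. Both neighbours start nearer to the summit than the ribosomal protein gene does, at 74 bp against 148 bp and at 67 bp against 151 bp.

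The 8 weak peaks were 336 bp wide with the summit 168 bp after the peak start, the same for all, while the 7 strong ones were 190 to 312 bp wide. Summit positions of the weak peaks are therefore midpoints of an interval of fixed width. At mRpL34 (FBgn0083983), on 2R at 16098569 to 16098904, the pooled signal was 132.2, with 60.5 in replicate 1 and 74.3 in replicate 2, and the partner was Dg, the dystroglycan gene. At mRpL39 (FBgn0036462), a mitochondrial addition, the peak on 3L at 14999594 to 14999929 had 128.4, with 58.0 and 56.0, and the partner was Prosbeta2, a proteasome subunit gene. A second peak at mRpL39, at 14999793 to 15000128 with a signal of 10.2, overlapped the first and had its summit 10 bp downstream of the Prosbeta2 start.

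At mRpL37 (FBgn0261380), on 3R at 10784016 to 10784351, the pooled signal was 102.7, with 49.5 in replicate 1 and 54.6 in replicate 2. At mRpS22 (FBgn0039555), on 3R at 27916646 to 27916981, it was 92.3, with 43.2 and 43.7, and the partner was CG5003. These 4 weak genes were in the own lists of both replicates, with ratios of replicate 1 to replicate 2 of 0.814 to 1.04.

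The last 4 were missing from at least 1 replicate's own list. mRpL16 (FBgn0023519), on X at 1889981 to 1890316 and shared with the histone methyltransferase gene trr, had a pooled signal of 81.0. It reached 54.7 in replicate 2's own list and was a candidate at 30.5 in replicate 1's ranked list, which also holds peaks that failed the threshold. mRpS24 (FBgn0039159), on 3R at 24163678 to 24164013 and shared with Apc2, a gene of the adenomatous polyposis coli family, had 78.8, with 51.4 in replicate 2's own list and 33.5 as a candidate in replicate 1. In this pair of genes replicate 2 was the higher.

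mRpL18 (FBgn0026741), whose bacterial counterpart binds the 5S RNA, had a pooled signal of 78.9 on 2R at 12756131 to 12756466 and was in neither replicate's own list. The candidates there had 46.5 in replicate 1 and 33.7 in replicate 2. It shares its promoter with Taz, the tafazzin gene of cardiolipin remodelling in mitochondria, and the summit lay in the 5' UTR of Taz. mRpL4 (FBgn0001995), whose bacterial counterpart lines the exit tunnel, had 115.2 on 2L at 16329082 to 16329417. It had a candidate of 56.0 in replicate 1, and no peak of replicate 2's ranked list overlapped it. The pooled peak still had a global IDR of 0.000981. Without reads, the missing overlap does not show that replicate 2 had no signal there. mRpL4 was also the only bound member absent from the longer thresholded list.

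**Figure D2:**
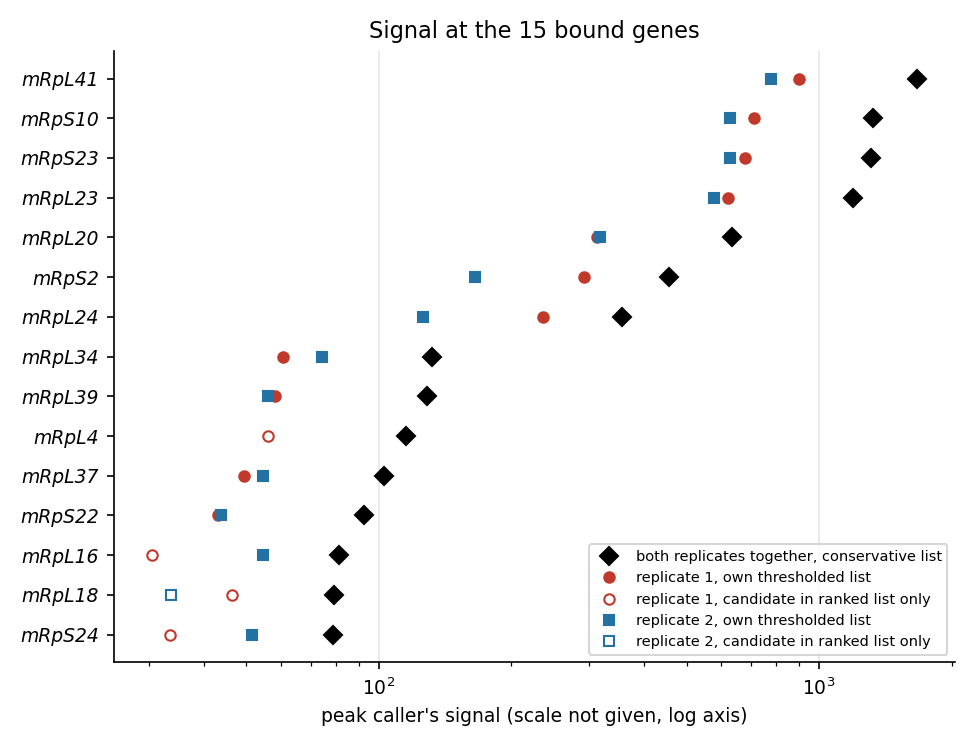
Each row is a bound gene and the log axis gives the peak caller's signal, with black diamonds for both replicates together, red circles for replicate 1 and blue squares for replicate 2. Open symbols are candidates of the ranked list that are absent from that replicate's own thresholded list; at mRpL4 replicate 2 has no symbol, and signals of the first 7 genes are above 300 when pooled.

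Of the 15 bound genes, 11 were in both replicates' own lists, 2 in that of replicate 2 only (mRpL16 and mRpS24), 0 in that of replicate 1 only and 2 in neither (mRpL4 and mRpL18). The 7 with strong peaks were all in both. Over the 14 genes with a candidate in each replicate, the ratio of replicate 1 to replicate 2 had a median of 1.06 and ran from 0.556 to 1.87, with 8 genes above 1 and 6 below. With 2 replicates of 1 group, no test was made of these differences. In replicate 1's own list 12 members were bound (16.4%, against 11.4% of all protein-coding genes), 11 of them also in the conservative list. In replicate 2's own list 14 were bound (19.2%, against 9.62%), 13 of them also in the conservative list. The longer list held 15 (20.5%, against 13.6%). These shares, and those under other settings below, are set against all protein-coding genes without regard to arrangement.

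Another 2 genes entered through these lists alone. mRpL32, shared with qless, a gene of coenzyme Q synthesis, had a signal of 73.8 in the longer list and 46.0 in replicate 2's own list, at a summit 112 bp upstream of its start in the longer list. mRpS7, shared with the cell cycle kinase gene Cdk1, was bound only in replicate 1's own list, with 64.3 and a summit at -188 bp from its start. In the pooled ranked list mRpS7 had no candidate within 500 bp of a start, and its nearest conservative summit was 29904 bp away. Together 17 members were bound in at least 1 of the 4 thresholded lists, 11 in all 4, and 56 in none.

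Most peaks lay within reach of more than 1 gene. At 14 of the 15 genes the start of another gene lay within 500 bp of the same summit, and at 13 this was a protein-coding gene (86.7%, where 60.5% of all bound protein-coding genes shared a peak with another). These 2 shares are not matched for arrangement, since all 15 members are head-to-head and 583 of the 1755 bound protein-coding genes are not. mRpL41 shared its peak with a non-coding gene, and mRpL4 with none. With each peak given only to the protein-coding gene with the nearest start, 7 members remained bound (9.59%), against 8.79% of all protein-coding genes. These were mRpL41, mRpL23, mRpL39, mRpL4, mRpL37, mRpS22 and mRpL16, of which 2 had strong peaks. The other 8 peaks were nearer to Art3, CenG1A, Icmt, Mon1, betaggt-I, Dg, Taz and Apc2. Which gene of a pair such a peak bears on cannot be told from its position.

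Most summits lay between paired starts. At 14 of the 15 genes the summit was between a start of the member and that of a head-to-head partner, and mRpL18 was the exception. For mRpL4 and mRpL41 this partner, CG4440 and CG8079, starts more than 500 bp from the summit. At mRpL23 the summit was between starts only for the most downstream start, 227 bp from CG9004. It lay outside the 24 bp gap between CG9004 and the closest mRpL23 start. Measured from the nearest start of the member, 14 of the 15 summits were upstream (93.3%), with a median of -135 bp and a range of -381 to 80 bp. For all bound protein-coding genes 90.2% were upstream, with a median of -145 bp. Within 250 bp of a start 12 members were bound (16.4%, against 9.74%), as mRpS23, mRpL20 and mRpS24 lay farther away, at 381, 273 and 301 bp. Within 1000 bp the count stayed at 15 (20.5%, against 14.9%).

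**Figure D3:**
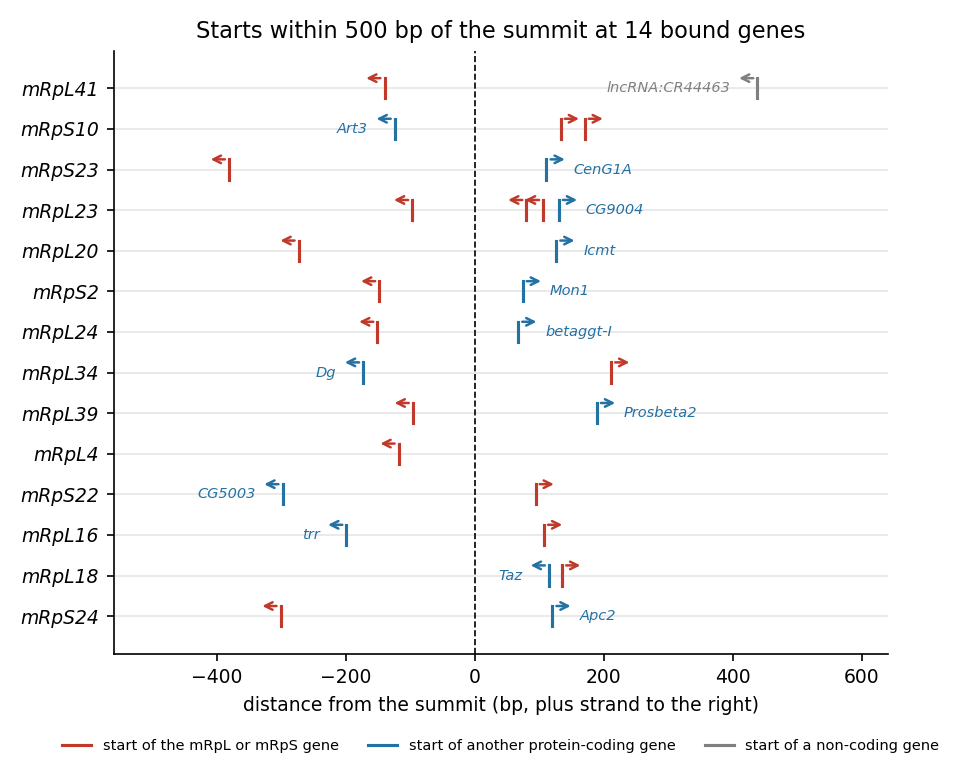
Each row is 1 of 14 bound genes (mRpL37 is not drawn), the x axis gives the distance from the summit in bp along the plus strand, and each tick with an arrow is a start and the direction of transcription (red for the mRpL or mRpS gene, blue for another protein-coding gene, grey for a non-coding one). At 11 of the rows the dashed summit line stands between a red and a blue start whose arrows point apart.

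Stricter definitions of a bound gene gave fewer members. With a global IDR (the expected share of irreproducible peaks among those ranked at least as high) of 0.001 or less, 10 members were bound (13.7%, against 8.33% of all protein-coding genes), the 7 with strong peaks and mRpL34, mRpL39 and mRpL4. When a start had to lie inside the peak interval, the count was 9 (12.3%, against 5.93%), of which mRpL41, mRpS10 and mRpL23 had strong peaks. The starts of mRpS23, mRpL20, mRpS2 and mRpL24 lay outside their peaks. This rule depends on peak width, which was 336 bp for the 8 weak peaks and 190 to 312 bp for the 7 strong ones. It is therefore no measure of peak strength.

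The 58 unbound members were mostly far from any conservative peak. Their nearest summit was 1205 to 172969 bp from a start, with a median of 11384 bp, and 0 of them had one at 500 to 1000 bp. The closest were at mRpL27 (1205 bp) and mRpL13 (1447 bp). A candidate of the pooled ranked list lay within 500 bp of a start at 34 of the 58 (58.6%), where 61.0% of all unbound protein-coding genes had one. Such candidates are dense along the genome, and their median signal was 27.0 at the members and 27.1 at all unbound protein-coding genes. The members' share and median were thus close to those of all unbound genes.

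The largest signals among these candidates were at mRpL32 (73.8), mRpS26 (63.7), mRpL53 (58.0), mRpL47 (57.3) and mRpS18B (55.3), all head-to-head genes. The weakest main peak of a bound member had 78.8. Unbound head-to-head members had a median of 34.0 over the 27 of 43 with a candidate, against 28.2 for all unbound head-to-head protein-coding genes. The unbound members of other arrangement had 18.9 over 7 of 15, against 26.4. The 2 groups of members overlapped.

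**Figure D4:**
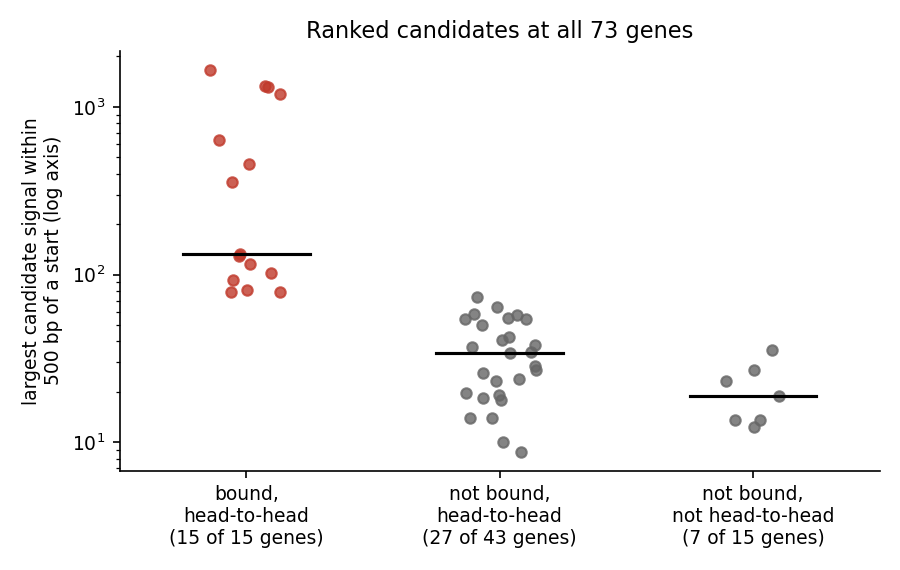
Each point is a gene with a candidate in the pooled ranked list, placed by its largest signal within 500 bp of a start (log axis), and lines are medians. All 15 bound genes lie at 78.8 or above, unbound head-to-head genes reach 73.8 and unbound genes of other arrangement reach 35.4; genes without a candidate are not drawn.

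The DNA at the summit held less G and C than the DNA beside it at all 15 bound members. Within 50 bp of the main summit the GC content ran from 15.8 to 51.5%, with a median of 27.7%, and in windows 300 bp to either side the median was 45.0%. It was lower at the summit than in the flanks at 15 of 15 genes, where summit minus flank ran from -34.2 points at mRpS22 to -2.5 points at mRpS23. The median difference was -22.3 points for the 7 strong peaks and -10.9 for the 8 weak ones. Other peaks at protein-coding starts had -17.8 points where the signal was above 300 (quartiles -24.3 and -7.4) and -11.9 where it was not. The drop was thus larger at the strong member peaks than at other strong peaks, with the median inside their quartiles. No difference was tested. Among these other peaks 1039 of 1288 (80.7%) were lower at the summit than in the flanks. That share was 90.6% above a signal of 300 and 78.7% up to it. The other peaks are not matched to the members for arrangement.

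Unbound members had A and T rich upstream DNA as well. In a window of 50 bp to either side of the point 120 bp upstream of the most upstream start, the median GC content was 25.7% at the 15 bound members (range 15.8 to 46.5%) and 27.7% at the 58 unbound ones (range 11.9 to 54.5%). For other protein-coding genes it was 30.7% at 1740 bound and 35.6% at 12155 unbound. At the 43 unbound members that are head-to-head it was 28.7%. Where a partner starts closer than the far end of this window, the window reaches into the partner gene. This can affect the 22 members with a partner's start 1 to 200 bp away, of which 2 were bound. The values of bound and unbound members overlapped widely.

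**Figure D5:**
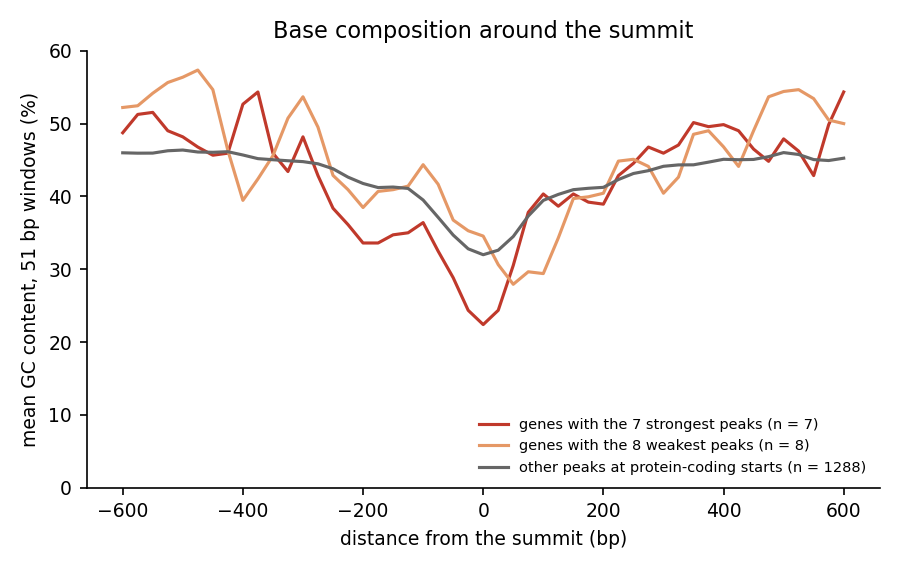
Lines give the mean GC content in windows of 51 bp against the distance from the summit along the plus strand, for the 7 strong member peaks, the 8 weak ones and 1288 other peaks at protein-coding starts. All 3 lines dip near the summit, most for the strong member peaks. The lowest point of the weak peaks, a mean over 8, lies off centre. Their summits are midpoints of intervals of fixed width, and whether this bears on the shift was not tested.

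Each of the promoter words searched for was at few of these summits. The windows of 50 bp to either side of the 16 member summits were searched on both strands for 8 short motifs. The 16 include the second peak of mRpL39, which had a signal of 10.2 and overlapped the main one. The TATA box word TATAAA was in 4 of 16, at mRpL23, mRpL4, mRpL37 and mRpS24, and in 26.2% of 1288 other peaks at protein-coding starts. The element of DREF, TATCGATA, occurred only in the second peak of mRpL39, next to the Prosbeta2 start (6.25%, against 1.94%), and the shorter CGATA of BEAF-32, which it contains, only there too (6.25%, against 18.7%). The homeodomain core TAATTA was at mRpL16 only (6.25%, against 10.7%), the GAGA factor word GAGAG at mRpS24 only (6.25%, against 6.52%) and the motif 7 word CANCNCTA at mRpL39 only (6.25%, against 5.36%). The motif 1 core GGTCACAC (0.776% elsewhere) and the E-box CAGCTG (2.87% elsewhere) were in 0 of 16.

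Other genes of mitochondrial gene expression were bound at 6 of 46 (13.0%), against 12.6% of all protein-coding genes. These 2 shares are not matched for arrangement, and 23.2% of all head-to-head protein-coding genes were bound. Of the head-to-head genes in the lists below, 3 of 14 were bound for genome and transcript maintenance and 1 of 7 for the synthetases. For the translation factors it was 0 of 3, and for the ribosomal proteins with other symbols 0 of 1. The 2 mitochondrial ribosomal proteins with other symbols, tko and bonsai, were not bound, with the nearest conservative summit 24816 and 10744 bp away. None of 9 matched mitochondrial translation factors was bound, a list too short to set against the share of all genes. Of 15 mitochondrial aminoacyl-tRNA synthetases, which load amino acids onto tRNAs, 1 was bound (6.67%). This was ProRS-m, with a pooled signal of 144.7 on 3L at 2651814 to 2652149, 84.2 in replicate 1 and 67.6 in replicate 2. It shared this peak with CG42304 and Snup.

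Genes that maintain the mitochondrial genome and its transcripts had 5 of 20 bound, and 3 of the 14 that are head-to-head. Over all protein-coding genes 12.6% were bound, and over the head-to-head ones 23.2%. No difference was tested. The largest signal was at PNPase, an exoribonuclease gene, with 1139 pooled, 581.5 in replicate 1 and 559.7 in replicate 2, on 3R at 31404507 to 31404806. SLIRP2, a gene for an RNA-binding protein, shared its peak with Mkk4 and had 774.1 pooled, 422.7 in replicate 1 and 340.4 in replicate 2. Weaker peaks were at mtSSB, which encodes the mitochondrial single-strand DNA-binding protein (243.8), SLIRP1 (125.5, shared with anox) and mTerf5 (78.8, shared with Non3 and in neither replicate's own list). The lists were written from general knowledge, and 8 of their 54 symbols were not matched.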

How the data were processed

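Chromatin immunoprecipitation and sequencing was done on 2 biological replicates of 1 group, on DNA sonicated to 200 to 800 bp per the labels' descriptions. Per the file listings, the authors made the peaks from filtered alignments and a control file on dm6. No source used here names the aligner or the peak caller. The authors deposited, per peak, a signal of unstated scale, an IDR score (830 or more in the conservative list), −log10 of a q value and, in ranked lists, −log10 of the global IDR. Another 24 columns of the 3 ranked lists used, which hold values of the lists that were compared, were left out.

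Starts were taken from Ensembl 115 and bases from the RefSeq copy of dm6, whose arm lengths contained every peak and gene. A replicate's value is its strongest peak that overlaps the pooled peak by 1 bp. The pairing of summits and starts was tested on simulated data. Tools were Python 3.11.15, pandas 2.3.3, numpy 2.4.6 and matplotlib 3.10.9. The members, lists, motifs and settings were chosen with earlier results of these data known, so counts are given beside the same counts over all protein-coding genes, with no test. Named genes are the members in any thresholded list, the genes that share their peaks, the 5 unbound members with the largest candidate signals, and the bound genes of the related lists. Division into strong and weak peaks, the 300 strongest, A and T runs, spacing of starts and upstream GC content were added after the values were seen. The gene that shares the mRpL37 peak is not reported here.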

Additional observations from a re-analysis of the deposited data

How the results depend on the processing

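The number of bound members was 15 in the conservative list and 10 to 15 with the longer list, with limits of 250 or 1000 bp and with a global IDR of 0.001 or less. It was 12 to 14 without 1 replicate. It fell to 7 with the nearest start only (6 mRpL, 1 mRpS) and to 9 when the peak had to cover a start (2 mRpS), all of them head-to-head genes. The mRpS count of 5 fell to 3 within 250 bp and to 3 at the stricter IDR. The 14 members that shared a peak became 9 within 250 bp, 9 at the stricter IDR and 3 when the peak had to cover the starts. The other counts under these settings moved less. The median signal at bound members was 132.2 in both pooled lists, 264.3 over the 12 genes in replicate 1's own list and 100.1 over the 14 in that of replicate 2, which hold different genes. The nearest-start count is smaller by construction, since each peak then has 1 gene. No paired analysis was possible because both samples belong to 1 group. Without reads, the depth behind weak or missing peaks is unknown.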
